A study of Rattus norvegicus with 17 samples.

Results

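Endothelium of stenotic side branches was set against endothelium of veins with neointimal hyperplasia (NIH) in a rat arteriovenous fistula (AVF), the surgical joining of a vein to an artery that is used for dialysis access. The members were chosen by the submitters' source name alone: 3 arrays labelled as stenosis and 5 labelled as NIH, 8 of the 17 arrays. The rest are 6 arrays of vein that kept venous flow, labelled as taken after ligation surgery, and 3 of femoral artery after AVF surgery. In the AVF, the superficial epigastric vein had been joined to the common femoral artery and tied off beyond its side branches. All vessels were taken 13 to 14 days after surgery. Both groups carried the fistula, arterial flow and the same tissue label, superficial epigastric vein, and they differed in the pathology label. The labels name no strain, sex, age or altered gene. Each array, of a single colour, received amplified RNA (50 ng before amplification) from 10 laser captures of luminal endothelium combined.

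NIH is the thickening of the innermost vessel layer, in which smooth muscle cells and matrix accumulate under the endothelium, and stenosis is the narrowing of the lumen. Inflamed endothelium binds monocytes and other leukocytes, which carry receptors that signal through small adaptors such as TYROBP and through Src-family kinases. Interferons act in part through IRF factors, which bind the interferon-stimulated response element, and the matricellular protein CCN2 is a known target of TGF-beta and of the YAP and TEAD factors, which respond to stretch and flow.

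The deposited data exist in 2 forms that disagree on the stenotic side branch, so results are given by form. The scanner output of the 5 NIH veins matched their own columns of the submitters' normalized value table, with a rank correlation of 1.0 each. The scanner output filed under stenotic side branches 1, 2 and 3 matched instead the value table's columns for venous-flow veins 1, 2 and 3. The value table's stenotic columns held the scanner output filed under venous-flow veins 1, 5 and 6. The files do not settle which form carries the right samples. "Stenotic" therefore means the label in the form named, and both forms share the same 5 NIH arrays. The background column of stenotic arrays 2 and 3 had been filled with the mean of pairs of NIH arrays, and the signal outside the 10000 spots of the value table was filled in 92.7% and 100% of spots of these arrays. The background columns of all 9 venous-flow and artery arrays, which enter the same fit, also equalled means of other arrays. Only those 10000 spots were used, and they gave 9446 features, of which 2878 have a gene symbol. The median signal above background was 33.0, 49.2 and 32.5 intensity units in the stenotic arrays, against 67.8, 51.6, 80.9, 47.0 and 56.4 in the NIH arrays, and its part in the results was not tested.

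In the scanner files, stenotic array 3 and NIH array 1 stood apart together. Their rank correlation with each other was 0.924, while each correlated at 0.303 to 0.579 with the other 6 arrays, which correlated at 0.709 to 0.923 among themselves. Both arrays had 402 features (4.26%) below 6.14 that were above 6.64 in all the other 6 arrays (log2 intensity), whereas no other pair of the 8 had more than 5 such features. Genes used by nearly every cell were among them. Cct3, a subunit of the chaperonin that folds actin and tubulin, was at 5.93 in stenotic array 3 and 5.95 in NIH array 1, and at 9.39 or more in the other 6. Rps27a, a ribosomal protein fused to ubiquitin, was at 5.95 in stenotic array 3 and 5.93 in NIH array 1, and at 10.24 or more in the other 6. In the value table NIH 1 alone stood apart, at 0.250 to 0.506 with the other columns, which correlated at 0.644 to 0.884. Main results are also given without both of them (scanner files, 2 arrays against 4) or without NIH 1 (value table).

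**Figure D1:**
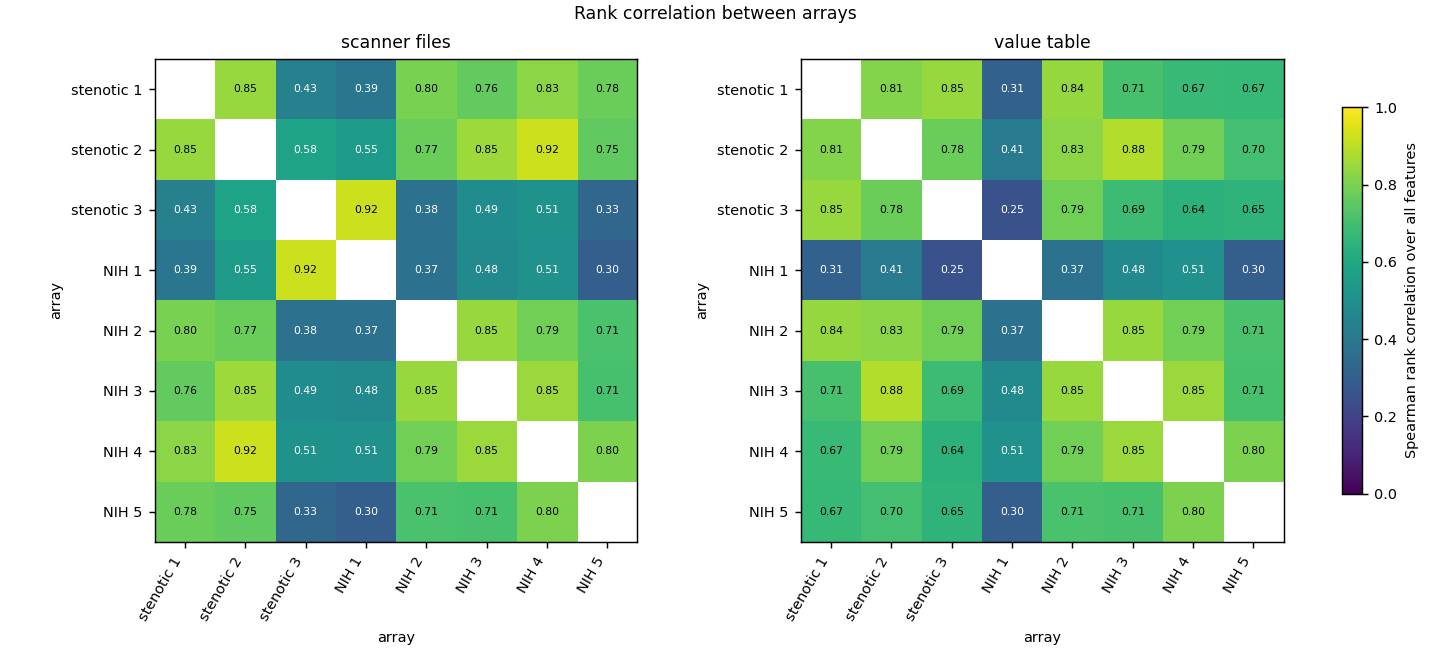
Spearman rank correlation over 9446 features between the 8 arrays, stenotic side branches first and NIH veins after, in the scanner files (left) and the value table (right). Stenotic 3 and NIH 1 pair with each other at 0.924 in the scanner files, and NIH 1 stays at 0.506 or lower in the value table.

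The labels give 6 rats for the study, and the titles of the 8 arrays each carry a different AVF number. Whether these numbers stand for animals is not stated, so regions may share an animal within or across the groups. P-values that treat regions as independent may then be too small. Of the defining endothelial genes Pecam1, Cdh5, Vwf, Tek and Kdr, Kdr alone was among the measured features. Kdr, the main receptor for VEGF on endothelium, was at 7.31, 7.82 and 8.91 in the stenotic arrays and at 6.80, 7.15, 7.34, 6.86 and 6.50 in the NIH arrays of the scanner files. The labelled cell type was therefore checked here on Kdr and on less specific endothelial genes only. Of the defining leukocyte genes Ptprc, Cd68, Itgam, Csf1r and Tyrobp, the measured ones were Cd68, Csf1r and Tyrobp. In captured tissue, fewer cells of a type and less RNA per cell cannot be told apart.

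In the scanner files the stenotic side branch was higher for 6 of 9446 features and lower for 0 at a Benjamini-Hochberg adjusted p under 0.05 in limma (0.0635% of features). At an unadjusted p under 0.05, 336 features passed (3.56%), with 219 higher (2.32%) and 117 lower (1.24%). All 3 stenotic arrays lay above all 5 NIH arrays for 105 features (1.11%) and below them for 87 (0.921%), and 49.0% of features had the higher mean in the stenotic arrays. Without both arrays that stand apart, 1 feature was called and 367 passed unadjusted. With 1 array left out at a time the count ran from 1 (without NIH 2) to 10 (without stenotic 2), and it was 2 without stenotic 1, NIH 3 or NIH 4 and 3 without NIH 1. Tyrobp and Igsf6 are the 2 called features with a symbol, and both belong to myeloid cells. The other 4 carry only an accession or clone name on the array.

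XM_576241, a predicted transcript without a matched symbol, had the smallest adjusted p. Its levels were 8.23, 8.61 and 7.97 in the stenotic arrays, against 6.84, 6.48, 6.40, 6.57 and 6.54 in the NIH arrays of the scanner files (log2 intensity). The 3.25-fold difference (log2 1.70 ± 0.16, SE) had an adjusted p of 0.000409 in limma, and it was called without any single array and without both arrays that stand apart (adjusted p = 0.00074). BF557813 was at 8.11, 7.78 and 7.70 in the stenotic arrays and at 6.76, 6.66, 6.67, 6.50 and 5.87 in the NIH arrays, a 2.59-fold difference (limma adjusted p = 0.0444). XM_001053627 was at 8.10, 7.46 and 9.08 in the stenotic arrays and at 6.65, 6.64, 6.82, 6.08 and 6.18 in the NIH arrays, a 3.33-fold difference (limma adjusted p = 0.0471). BE120531, whose NIH levels lay within 0.5 of the floor of 5.64 that the background offset of 50 sets, was 0.82 ± 0.14 (SE) higher on the log2 scale in the stenotic arrays (limma adjusted p = 0.0471). Groups did not overlap for any of the 4 in the scanner files. Their value-table differences ran from -0.59 to -0.12, all in the other direction and none called. BF557813, XM_001053627 and BE120531 were not called without both arrays that stand apart (limma adjusted p = 0.131, 0.21 and 0.21). With single arrays left out, BF557813 stayed called without NIH 5 alone, and XM_001053627 and BE120531 without stenotic 2 alone. With only the 2 groups in the limma fit, 0 features were called and 258 passed unadjusted, so all 6 calls were lost, those of XM_576241, Tyrobp and Igsf6 included.

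Among genes of myeloid receptors and their adaptors, 2 were called higher in the stenotic side branch of the scanner files. Tyrobp, the adaptor that carries the activating signal of many myeloid and NK-cell receptors, was at 8.91, 8.62 and 10.52 in the stenotic arrays, against 6.96, 7.40, 7.46, 7.01 and 7.02 in the NIH arrays. Every stenotic array lay above every NIH array, and stenotic array 3 was the highest. Tyrobp rose 4.52-fold (log2 2.18 ± 0.34, SE; limma adjusted p = 0.0389), and by 1.54 without both arrays that stand apart, where it was no longer called (adjusted p = 0.0944). It also lost its call without stenotic array 1 or without any 1 of the NIH arrays, with adjusted p up to 0.126. Igsf6, an immunoglobulin-superfamily receptor of monocytes and dendritic cells, was at 7.10, 6.73 and 7.69 in the stenotic arrays and at 6.00, 5.68, 6.15, 5.90 and 5.75 in the NIH arrays. It rose by 1.28 ± 0.17 on the log2 scale (SE; limma adjusted p = 0.0132), with the NIH arrays near the floor. Without both arrays that stand apart the difference of Igsf6 was 1.04 (adjusted p = 0.0657), and its call was also lost without stenotic array 1 or without NIH array 2.

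Of 66 listed genes of myeloid receptors and adaptors, 12 were measured in the scanner files. Of these 12, 10 had the higher mean in the stenotic arrays, against 49.0% of all features, and 2 were called higher (0.0635% of all). At an unadjusted p under 0.05, 5 passed higher (2.32% of all features) and 0 lower (1.24%). All stenotic arrays lay above all NIH arrays for 4 of them (1.11% of all features) and below for 0 (0.921%). Their median log2 difference was 0.60, beside 0.00 over all features, and 0.76 without both arrays that stand apart. C5ar1, the receptor for the complement fragment C5a, was at 7.76, 7.30 and 9.30 in the stenotic arrays and at 6.18, 6.69, 6.73, 6.22 and 5.88 in the NIH arrays, a difference of 1.78 that was not called (limma adjusted p = 0.142), or 1.15 without both arrays that stand apart (adjusted p = 0.545). Klra5, a lectin-like receptor of the Ly49 family, was at 7.81, 6.92 and 7.96 in the stenotic arrays and between 6.21 and 6.74 in the NIH arrays (difference 1.09, limma adjusted p = 0.142). Groups did not overlap for either gene, and both were called without stenotic array 2 (limma adjusted p = 0.0412 for C5ar1 and 0.00531 for Klra5). Fcgr2b, the inhibitory Fc receptor, differed by 0.56 with overlapping groups (limma adjusted p = 0.732), or by 0.37 without both arrays that stand apart.

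Other myeloid markers did not separate the groups. Cd68, a lysosomal protein of macrophages, was at 7.78, 7.25 and 5.94 in the stenotic arrays and at 5.87, 6.91, 7.50, 6.64 and 6.38 in the NIH arrays, a difference of 0.33 ± 0.47 (SE), or 0.66 without both arrays that stand apart. Csf1r, the receptor that macrophages need to survive, was near the floor in every array, between 5.88 and 5.97 in the stenotic and between 5.82 and 6.02 in the NIH arrays. Cd14, the co-receptor for lipopolysaccharide, was at 5.91, 5.83 and 6.47 in the stenotic arrays and between 5.75 and 6.13 in the NIH arrays, a difference of 0.13, or -0.03 without both arrays that stand apart. The difference was 0.65 for Tlr2, a receptor for bacterial lipoproteins, 0.67 for C3ar1, the receptor for complement C3a, 0.38 for Sirpa, which binds the "do not eat me" ligand CD47, and -0.26 for Cd52, a lymphocyte and monocyte surface glycoprotein. Tlr2 differed by 1.12 and Sirpa by 0.15 without both arrays that stand apart. The summed linear level of the list ran from 2070 to 3660 in the stenotic arrays and from 1060 to 2130 in the NIH arrays.

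**Figure D2:**
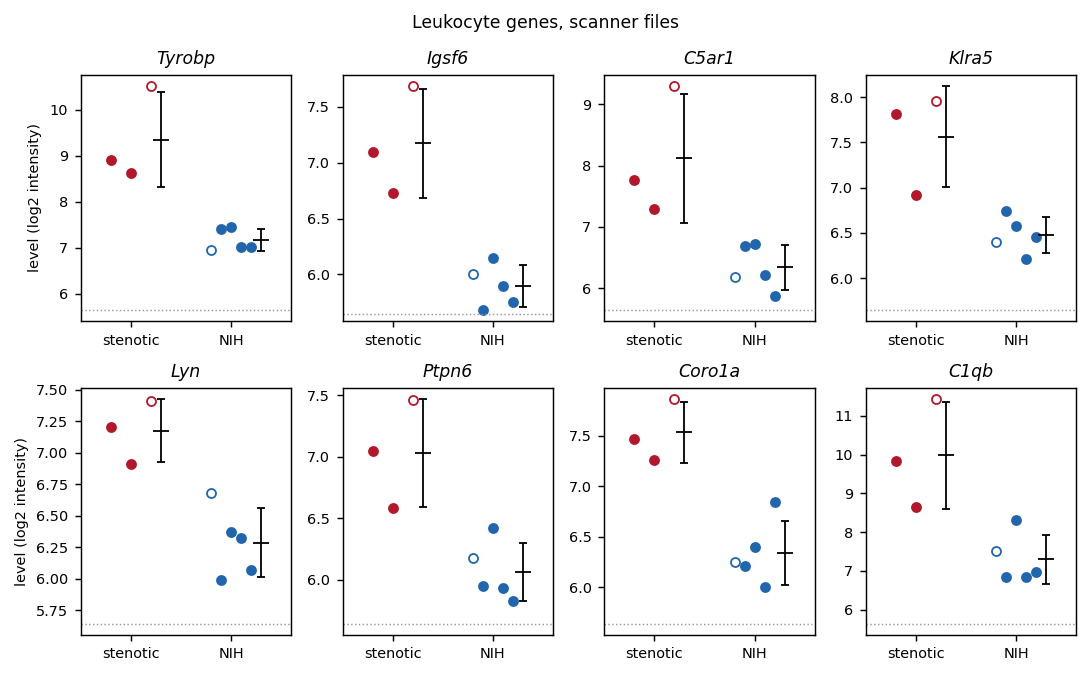
Levels (log2 intensity) of 8 leukocyte genes in the scanner files, with 1 point per array, stenotic side branches (3) left of NIH veins (5). Open points are stenotic 3 and NIH 1, bars are mean and SD, and the dotted line is the floor of 5.64. All stenotic points lie above all NIH points in each panel.

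Intracellular signalling genes of leukocytes mostly had the higher mean in the stenotic arrays of the scanner files, and 0 were called. Of 19 measured genes of 71 listed, 18 had the higher mean in the stenotic arrays (49.0% of all features). At an unadjusted p under 0.05, 9 passed higher (2.32% of all features) and 0 lower (1.24%). All stenotic arrays lay above all NIH arrays for 7 of them (1.11% of all features) and below for 0 (0.921%). Their median difference was 0.48, and 0.66 without both arrays that stand apart, when all 19 had the higher mean. Lyn, a Src-family kinase of myeloid and B cells, was at 7.20, 6.91 and 7.41 in the stenotic arrays and at 6.68, 5.99, 6.37, 6.32 and 6.07 in the NIH arrays. Its 1.85-fold difference had a limma adjusted p of 0.0512, and of 0.0958 without both arrays that stand apart. Ptpn6, the phosphatase SHP-1 that restrains such kinases, was at 7.05, 6.58 and 7.46 in the stenotic arrays and at 6.18, 5.95, 6.42, 5.93 and 5.83 in the NIH arrays (difference 0.97, limma adjusted p = 0.0514). Coro1a, an actin-binding protein of leukocytes, was at 7.47, 7.26 and 7.86 in the stenotic arrays and at 6.25, 6.21, 6.40, 6.00 and 6.84 in the NIH arrays, a 2.28-fold difference (limma adjusted p = 0.0592). The groups did not overlap for these 3 genes. With 1 array left out, Lyn was called without NIH 1 or stenotic 2, Ptpn6 without stenotic 2 and Coro1a without NIH 5.

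Gmfg, an actin regulator of white blood cells, averaged 8.75 ± 0.46 in the stenotic arrays and 7.44 ± 0.43 in the NIH arrays (SD, n = 3 and 5), a 2.47-fold difference with a limma adjusted p of 0.161. Ctsc, the protease that activates granule serine proteases, was at 7.64, 7.10 and 9.01 in the stenotic arrays and between 5.73 and 6.81 in the NIH arrays, a 3.13-fold difference (limma adjusted p = 0.192). The log2 difference of Ctsc was 1.09 without both arrays that stand apart and 1.65 with them. Prkcb and Fgr, a kinase of the protein kinase C family and another Src-family kinase, also did not overlap, at differences of 0.46 and 0.21 close to the floor. Laptm5, a lysosomal protein of blood cells, and Csk, the kinase that switches Src-family kinases off, differed by 1.17 and 0.66 with overlapping groups, and Laptm5 by 0.67 without both arrays that stand apart. The largest difference of the list was that of Lgals3, galectin-3, at 10.24, 11.13 and 14.40 in the stenotic arrays and 11.90, 9.61, 10.80, 9.17 and 7.05 in the NIH arrays. Its groups overlapped and its SE was 1.08 around a difference of 2.22. The summed linear level of the list ran from 6090 to 27100 in the stenotic arrays and from 2770 to 6510 in the NIH arrays. Lgals3 in stenotic array 3, at 14.40, makes up most of the highest sum.

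Neither list had a median above that of all features in the value table. Tyrobp was at 6.94, 6.93 and 6.17 in the stenotic columns and between 6.63 and 7.22 in the NIH columns, a difference of -0.20 ± 0.65 (SE, log2; limma adjusted p = 0.958). Igsf6 differed by 0.12 (limma adjusted p = 0.962). The median difference was -0.19 over the myeloid receptors and -0.16 over the signalling genes, beside -0.03 over all features, and no member of either list was called. Summed linear levels of the signalling genes ran from 2530 to 4760 in the stenotic columns and from 2300 to 6020 in the NIH columns. Those of the myeloid receptors ran from 948 to 2260 and from 771 to 1820. Klra5 lay below every NIH column there (difference -0.84, limma adjusted p = 0.685), whereas it lay above every NIH array in the scanner files. The binding motif of PU.1, the lineage factor of myeloid cells, was searched as GAGGAAGT on both strands of the 250 bases upstream of the start (RefSeq, GRCr8). It stood upstream of 0 of the 8 myeloid receptor genes with a promoter at hand, Igsf6 among them. Tyrobp had no promoter at hand and was not searched. For the signalling genes the motif stood upstream of 3 of 12 (Ctsc, Ctss and Samsn1). The share over all 33469 promoters was 2.04%, where a gene can have several promoters.

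Complement genes were measured for 7 of 29 listed. C1qb, a chain of the recognition molecule of the classical pathway that macrophages make, was at 9.84, 8.66 and 11.43 in the stenotic arrays of the scanner files, against 7.52, 6.85, 8.32, 6.84 and 6.96 in the NIH arrays. The groups did not overlap, and the difference of 6.41-fold (log2 2.68 ± 0.60, SE) was not called (limma adjusted p = 0.192), and it was 2.01 without both arrays that stand apart. C1qa, its partner chain, was near the floor, at 5.92, 5.92 and 6.65 in the stenotic arrays and between 5.74 and 6.08 in the NIH arrays. Clu, a regulator of the terminal complex, was lower by values: 6.27 ± 0.33 in the stenotic arrays and 7.03 ± 0.78 in the NIH arrays (SD, n = 3 and 5). Of the 7, 5 had the higher mean (49.0% of all features), and the median difference was 0.67. The 2 that passed higher unadjusted (2.32% of all features) were C1qb and C5ar1, and 0 passed lower. C5ar1 is also counted among the myeloid receptors. The value-table median was -0.13, C1qb differed by -0.30, and 2 of 7 had the higher mean (45.1% of all features).

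Of 15 measured interferon-responsive genes of 83 listed, 10 had the higher mean in the stenotic arrays of the scanner files (49.0% of all features) and 0 were called in either form. Oas1a, the synthase of the messenger that activates the antiviral nuclease RNase L, was at 8.44, 8.43 and 7.78 in the stenotic arrays, against 6.12, 7.05, 7.22, 6.28 and 7.15 in the NIH arrays. All stenotic arrays lay above all NIH arrays, by 2.74-fold on average (log2 1.45 ± 0.33, SE; limma adjusted p = 0.192), and the difference was 1.51 without both arrays that stand apart. Irf7, the transcription factor that amplifies interferon production, was at 7.48, 6.77 and 7.54 in the stenotic arrays and at 6.05, 6.38, 6.63, 5.86 and 5.99 in the NIH arrays (2.12-fold, limma adjusted p = 0.192). Psmb9, an interferon-induced proteasome subunit, did not overlap either, at a difference of 0.43. Gbp2, a guanylate-binding protein of cell defence, averaged 7.91 ± 0.61 in the stenotic arrays and 6.93 ± 0.44 in the NIH arrays (SD, n = 3 and 5), with overlap. Apobec1, an RNA-editing deaminase, was at 8.39 in stenotic array 3 and at 6.53 or lower in the other 7 arrays, and its difference of 1.03 was 0.40 without both arrays that stand apart.

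Among these 15, 5 passed higher and 0 lower unadjusted in the scanner files (2.32% of all features passed higher), and 3 lay above every NIH array (1.11% of all features) and 0 below. The median difference was 0.37, and 0.24 without both arrays that stand apart. For the value table the median was 0.23, with 11 of 15 higher by mean (45.1% of all features). In that form Oas1a was at 7.36, 6.97 and 6.48 in the stenotic columns and between 5.52 and 6.93 in the NIH columns (difference 0.58, limma adjusted p = 0.782). Irf7 differed there by 0.30.

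The interferon-stimulated response element was searched as GAAA, any 2 bases and GAAA again, on both strands of the 250 bases upstream of each start in RefSeq for the GRCr8 build. Of the 15 measured interferon-responsive genes, 14 had a promoter at hand, and the element stood upstream of 10 of these genes. The share over all 33469 promoters was 3.41%, where a gene can have several promoters. The promoters of Oas1a and Irf7 are shown because these genes had the largest differences of the list that did not overlap. That of Oas1a lies on the + strand at chr12:41330216-41330465 and holds 2 overlapping matches, and that of Irf7 lies on the - strand at chr1:205800024-205800273 and holds 1, on the opposite strand. Capitals mark the matched bases.
Oas1a: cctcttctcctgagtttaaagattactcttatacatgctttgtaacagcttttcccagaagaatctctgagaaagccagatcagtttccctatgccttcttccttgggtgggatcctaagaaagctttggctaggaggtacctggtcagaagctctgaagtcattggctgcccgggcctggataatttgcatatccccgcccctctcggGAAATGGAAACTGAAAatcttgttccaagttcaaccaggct
Irf7: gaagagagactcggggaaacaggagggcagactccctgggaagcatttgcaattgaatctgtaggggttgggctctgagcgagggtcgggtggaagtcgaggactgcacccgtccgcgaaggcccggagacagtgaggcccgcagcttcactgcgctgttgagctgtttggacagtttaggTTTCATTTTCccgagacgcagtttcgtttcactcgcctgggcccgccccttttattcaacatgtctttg

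Genes of antigen presentation on MHC class II had 0 calls in either form. Cd74, the chain that escorts class II molecules, was at 6.33, 6.02 and 6.37 in the stenotic arrays and at 5.96, 5.70, 5.83, 5.76 and 5.86 in the NIH arrays of the scanner files. Its groups did not overlap, at a difference of 0.42 ± 0.10 (SE, log2; limma adjusted p = 0.192). Ifi30, a thiol reductase that unfolds antigens, was at 8.93, 8.53 and 10.49 in the stenotic arrays and between 7.93 and 8.74 in the NIH arrays, a difference of 1.12 with overlap, or 0.53 without both arrays that stand apart. RT1-Da, a class II chain of the rat, differed by 0.49, or by 0.31 on the same 6 arrays. Of 9 measured genes of 23 listed, 7 had the higher mean (49.0% of all features) and 2 passed higher unadjusted (2.32% of all features). The median difference was 0.29, beside -0.08 in the value table.

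Among chemokines, cytokines and their receptors, 19 of 58 listed were measured. Ccl6, a chemokine of macrophages, was at 8.98, 7.95 and 7.28 in the stenotic arrays and at 6.54, 6.87, 6.80, 5.98 and 6.23 in the NIH arrays of the scanner files. Ccl6 in the value table was at 8.24, 7.74 and 6.84 in the stenotic columns and at 6.10, 6.51, 6.43, 5.30 and 5.67 in the NIH columns. The groups did not overlap in either form, the folds were 3.00 and 3.04, and neither was called (limma adjusted p = 0.731 and 0.614). Tnfrsf1b, the second TNF receptor, did not overlap in the scanner files (difference 0.62, limma adjusted p = 0.142), with NIH arrays near the floor. Ccl3, a chemokine of activated macrophages, was at 7.49, 6.30 and 7.71 in the stenotic arrays and at 6.91 in NIH array 1, with the other 4 NIH arrays between 5.72 and 5.90. Il1b, the proinflammatory interleukin-1 beta, was at 9.0, 10.02 and 6.15 in the stenotic arrays and between 6.40 and 8.07 in the NIH arrays, a spread wider than its difference of 1.05, which was 2.35 without both arrays that stand apart. Over the list 14 of 19 had the higher mean in the scanner files (49.0% of all features), and the median was 0.22. Unadjusted, 3 passed higher (2.32% of all features) and 0 lower (1.24%). The value table gave a median of 0.11, with 12 of 19 higher by mean (45.1% of all features).

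Ccn2, formerly connective tissue growth factor, had the lower level in every stenotic sample of both forms and was called in the value table. In the value table it was at 6.01, 6.14 and 5.58 in the stenotic columns, against 9.64, 8.20, 8.67, 9.22 and 8.29 in the NIH columns. All stenotic columns lay below all NIH columns, and Ccn2 fell to 0.134 of the NIH level (log2 -2.90 ± 0.54, SE; limma adjusted p = 0.0377). The call was lost without any single column (limma adjusted p from 0.0502 to 0.172), and without NIH 1 the difference was -2.69 (adjusted p = 0.080). In the scanner files Ccn2 was at 7.54, 7.44 and 6.82 in the stenotic arrays and at 9.69, 8.33, 8.77, 9.29 and 8.41 in the NIH arrays. These groups did not overlap either, at a difference of -1.63 ± 0.52 (SE, limma adjusted p = 0.732), or -1.21 without both arrays that stand apart. The fold over NIH was 0.323 in the scanner files.

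Igfbp3, a binding protein that holds insulin-like growth factors in the blood and tissue and a known target of TGF-beta, was at 7.77, 9.30 and 7.31 in the stenotic arrays of the scanner files, against 11.46, 10.72, 11.47, 10.93 and 9.60 in the NIH arrays. In the value table it was at 7.86, 8.10 and 7.25 in the stenotic columns and at 11.44, 10.70, 11.45, 10.91 and 9.55 in the NIH columns. The groups did not overlap in either form, and the differences of -2.71 and -3.07 were not called (limma adjusted p = 0.203 and 0.0838). A second Igfbp3 probe, of lower signal, differed by -1.41 and -2.16. When every probe was tested on its own, that probe was called in both forms (limma adjusted p = 0.0341 in the scanner files and 0.00658 in the value table), while the brighter one was not. The other members of the family of CCN proteins, TGF-beta signalling genes and YAP targets were mostly lower by small values.

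Of 23 measured genes of that list (68 listed), 4 had the higher mean in the stenotic arrays of the scanner files, against 49.0% of all features. Unadjusted, 0 passed higher and 4 lower, against 2.32% and 1.24% of all features. The median difference was -0.16, and -0.17 without both arrays that stand apart. Ccn1, a relative of Ccn2 induced by flow and YAP, was at 11.01, 10.96 and 7.72 in the stenotic arrays and between 10.43 and 12.27 in the NIH arrays. Stenotic array 3 alone lay below the NIH arrays, and the difference of -1.54 became -0.45 without both arrays that stand apart. Ccn3, which opposes Ccn2 in several settings, averaged 7.30 ± 0.35 in the stenotic arrays and 8.13 ± 1.45 in the NIH arrays (SD, n = 3 and 5). The list's median in the value table was -0.28, with 1 gene called lower (Ccn2), and Ccn3 and the transcription factor Snai1 differed in the other direction, by 0.98 and 1.16, although a second Snai1 probe differed by -1.93.

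TEAD factors bind GGAATG, which was searched on both strands of the same upstream windows. It stood upstream of 4 of the 17 genes of the list with a promoter at hand (Ajuba, Ccn1, Ccn2 and Id3). The share over all 33469 promoters was 12.06%, where a gene can have several promoters. The Igfbp3 promoter held no match. The Ccn2 promoter is shown because Ccn2 was called, and it lies on the - strand at chr1:22624615-22624864 and holds 3 matches, in capitals.
Ccn2: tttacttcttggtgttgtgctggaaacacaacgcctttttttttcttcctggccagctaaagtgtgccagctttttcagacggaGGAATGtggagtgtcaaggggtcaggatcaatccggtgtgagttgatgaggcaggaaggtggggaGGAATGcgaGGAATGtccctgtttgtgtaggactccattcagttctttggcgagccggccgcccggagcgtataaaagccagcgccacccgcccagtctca

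**Figure D3:**
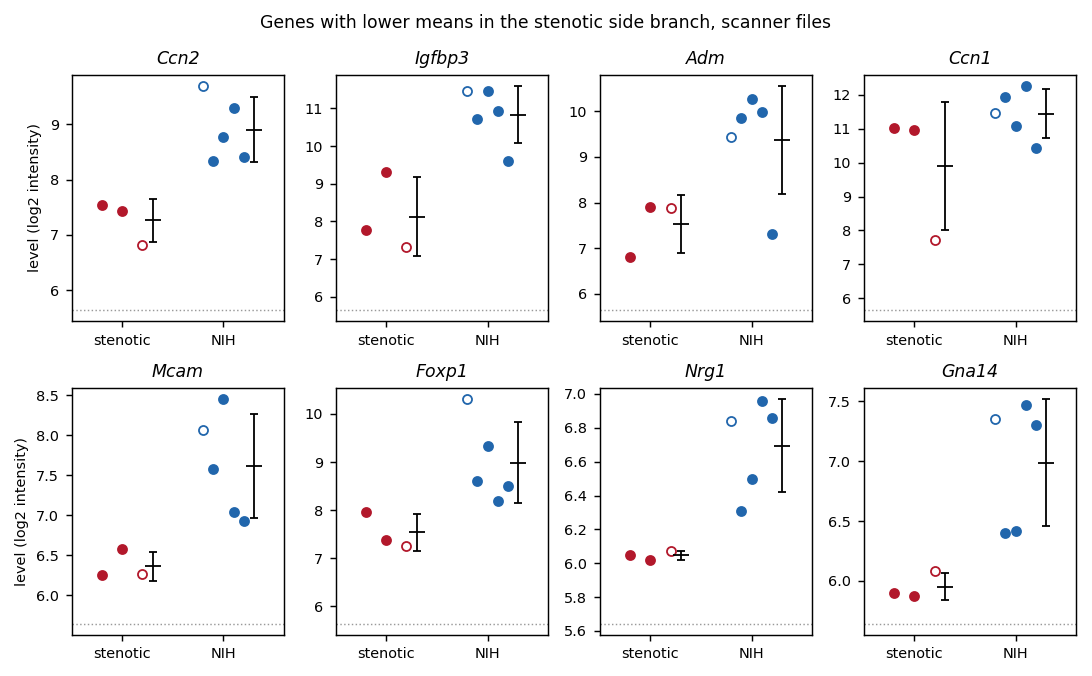
Levels (log2 intensity) of 8 genes with the lower mean in the stenotic side branch, scanner files, with 1 point per array, stenotic (3) left of NIH (5). Open points are stenotic 3 and NIH 1, bars are mean and SD, and the dotted line is the floor of 5.64. Groups overlap for Adm and Ccn1 and not for the other 6 genes.

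Foxp1, Mcam and Nepro had the lower mean and no overlap in the scanner files. Foxp1, a forkhead transcriptional repressor, was at 7.97, 7.38 and 7.26 in the stenotic arrays and at 10.31, 8.61, 9.33, 8.20 and 8.50 in the NIH arrays (difference -1.45, limma adjusted p = 0.731). Mcam, the endothelial adhesion molecule CD146, was at 6.25, 6.57 and 6.26 in the stenotic arrays and at 8.06, 7.58, 8.45, 7.04 and 6.93 in the NIH arrays (difference -1.26, limma adjusted p = 0.811). Nepro, a nucleolar protein, was at 6.15, 6.22 and 6.35 in the stenotic arrays and at 7.62, 7.37, 7.08, 7.06 and 6.72 in the NIH arrays (difference -0.94, limma adjusted p = 0.192). None was called.

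Gna14, a G protein alpha subunit, lay below every NIH sample in both forms, at differences of -1.03 in the scanner files and -1.65 in the value table. Its stenotic levels of 5.90, 5.87 and 6.08 were near the floor, so no fold is given for the scanner files. Nrg1, a ligand of the ERBB receptors, also lay below in both forms (-0.65 and -1.25), but a second probe differed by 0.04 and 0.53. Lpin3, a phosphatidate phosphatase, lay below in both forms (-1.12 and -1.87), as did Cited2, a co-regulator that restrains hypoxia-inducible factor (-0.57 and -1.07). The scanner difference of Lpin3 was -0.65 without both arrays that stand apart. The smallest adjusted p among these 4 genes was 0.0747, for Nrg1 in the value table. Ubd, an interferon-induced ubiquitin-like protein, was at 6.31, 6.95 and 5.87 in the stenotic arrays and at 7.41, 9.34, 9.41, 7.68 and 6.90 in the NIH arrays, where stenotic array 2 lay just above the lowest NIH array. Ubd in the value table did not overlap (difference -2.57, limma adjusted p = 0.135).

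Genes of angiogenesis and hypoxia went both ways. Adm, the vasodilator adrenomedullin, was at 6.81, 7.91 and 7.89 in the stenotic arrays and at 9.43, 9.85, 10.28 and 9.98 in 4 NIH arrays, with NIH array 5 at 7.32. Its difference of -1.84 was not called (limma adjusted p = 0.952), and the value table gave -1.76. Esm1, a proteoglycan of sprouting endothelium, was at 6.90, 7.18 and 6.93 in the stenotic arrays and at 8.08, 8.20, 7.94, 8.90 and 6.93 in the NIH arrays (difference -1.0), where NIH array 5 was again the lowest. Kdr differed by 1.08 in the other direction, or by 0.60 without both arrays that stand apart. Apln, the ligand of the apelin receptor, differed by 0.41 near the floor (0.12 without both arrays that stand apart), and Vegfa by 0.09 near the floor. Of 17 measured genes of 66 listed, 10 had the higher mean in the scanner files (49.0% of all features). There 2 passed higher and 2 lower unadjusted, against 2.32% and 1.24% of all features. The median was 0.03 in the scanner files and 0.02 in the value table.

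Endothelial identity genes went both ways in the scanner files, where 9 of 22 measured genes (64 listed) had the higher mean (49.0% of all features). Unadjusted, 1 passed higher (2.32% of all features) and 1 lower (1.24%), and the median was -0.12. Ece1, which makes the vasoconstrictor endothelin-1, averaged 8.58 ± 0.67 in the stenotic arrays and 9.60 ± 0.70 in the NIH arrays, and Selp, P-selectin, averaged 6.31 ± 0.41 in the stenotic arrays and 7.01 ± 0.75 in the NIH arrays (SD, n = 3 and 5). Vcam1, the adhesion molecule that captures monocytes, was at 8.16, 8.46 and 9.92 in the stenotic arrays and between 6.15 and 8.96 in the NIH arrays (difference 1.34, limma adjusted p = 1.00). Without both arrays that stand apart, Vcam1 differed by 0.78 and Ece1 by -0.55. Vcam1 differed in the value table by 1.84. There 14 of the 22 had the higher mean (45.1% of all features), the median was 0.29, and 1 was called (0.286% of all features). Unadjusted, 6 passed higher (2.52% of all features) and 0 lower (4.73%).

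That called gene was Jam2, a junction protein of endothelium, at 6.77, 7.93 and 6.85 in the value table's stenotic columns, against 5.38, 5.29, 5.24, 5.13 and 5.00 in the NIH columns. Jam2 rose by 1.98 ± 0.29 on the log2 scale in the value table (SE; limma adjusted p = 0.00724), a call that was lost without stenotic column 2 (adjusted p = 0.0706). A second Jam2 probe differed by -0.21 there, so the probes disagreed. In the scanner files it was near the floor in both groups, between 5.89 and 6.10 in the stenotic arrays and between 5.79 and 6.03 in the NIH arrays, so no fold is given. Thbd, the anticoagulant receptor thrombomodulin, was at 10.32, 11.38 and 8.66 in the value table's stenotic columns and between 6.16 and 8.33 in the NIH columns (difference 2.48, limma adjusted p = 0.141). Its scanner difference was -0.67, in the other direction.

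The value table called 27 features (0.286%), 23 of them higher in the stenotic columns (0.243%) and 4 lower (0.0423%), of which 13 have a symbol. At an unadjusted p under 0.05, 685 features passed (7.25%), with 238 higher (2.52%) and 447 lower (4.73%). Stenotic columns lay above all NIH columns for 281 features (2.97%) and below them for 454 (4.81%), and 45.1% of features had the higher mean. Without NIH 1, 26 were called, 20 higher and 6 lower. With 1 column left out the count fell to 4 without stenotic 2, 12 without stenotic 1, 10 without NIH 5, 16 without NIH 4 and 17 without NIH 2.

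Tsc22d3, the glucocorticoid-induced leucine zipper protein GILZ, had the smallest adjusted p of the value table. It was at 8.87, 8.26 and 9.30 in the stenotic columns, against 6.95, 6.67, 7.07, 6.61 and 6.11 in the NIH columns, and rose 4.37-fold (log2 2.13 ± 0.24, SE; limma adjusted p = 0.00222). The call held without each single array in turn and without NIH 1 (adjusted p = 0.0047). In the scanner files Tsc22d3 was at 8.35, 7.82 and 8.24 in the stenotic arrays and at 7.23, 7.0, 7.33, 6.95 and 6.56 in the NIH arrays. The groups did not overlap there either, at a 2.18-fold difference that was not called (limma adjusted p = 1.00).

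Khdrbs3, an RNA-binding splicing regulator, was at 6.52, 6.37 and 6.63 in the value table's stenotic columns and at 5.09, 5.48, 5.45, 5.00 and 5.19 in the NIH columns. It rose by 1.26 ± 0.16 on the log2 scale (SE; limma adjusted p = 0.00284), called without each single array. No fold is given, since its scanner levels were near the floor in both groups. Tf, the iron carrier transferrin, rose 5.28-fold in the value table (limma adjusted p = 0.00724), at 8.10, 8.66 and 7.89 in the stenotic columns and 5.36, 6.51, 6.72, 5.23 and 5.27 in the NIH columns. The call of Tf was lost without stenotic column 2 (adjusted p = 0.076). In the scanner files Tf was at 6.53, 6.11 and 6.27 in the stenotic arrays and between 5.94 and 7.04 in the NIH arrays. Ndrg2, a stress-responsive protein of several tissues, had the largest difference among the called genes with a symbol, at 11.27, 12.90 and 10.32 in the value table's stenotic columns and 5.84, 6.79, 8.57, 5.17 and 5.91 in the NIH columns (32.9-fold, limma adjusted p = 0.0152). Its call was lost without stenotic 1, stenotic 2 or NIH 5, and its scanner difference was 1.44 with overlap (0.76 without both arrays that stand apart).

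The other called genes of the value table with a symbol were higher in the stenotic columns by 1.19 to 2.37 on the log2 scale. They were Cyyr1, Rph3al, Arl4a, Mettl7a, G0s2, Gchfr and Nrxn2, with limma adjusted p from 0.0154 to 0.0430, and each lost its call without at least 1 single column. A second Mettl7a probe differed by 0.22. G0s2 inhibits the lipase that breaks down stored fat, Gchfr regulates the first enzyme of tetrahydrobiopterin synthesis, the cofactor of nitric oxide synthase, and Arl4a is a small GTPase. Their scanner differences ran from -0.19 to 0.38, and none of these 7 separated the groups there. Cyyr1, Rph3al, G0s2 and Nrxn2 were near the floor in both groups of the scanner files.

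**Figure D4:**
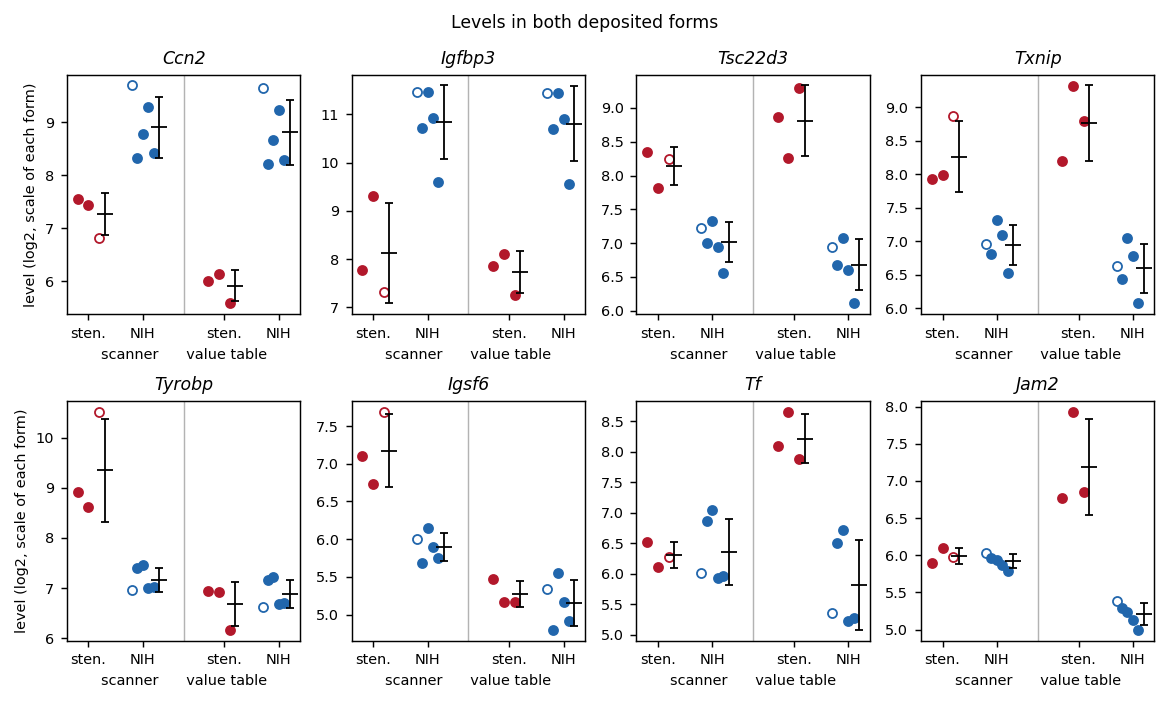
Levels (log2, each form on its own scale) of 8 genes, with 1 point per array, in the scanner files (left of the grey line) and the value table (right), stenotic side branches (3) left of NIH veins (5) in each. Open points are stenotic 3 of the scanner files and NIH 1, and bars are mean and SD. Ccn2 and Igfbp3 lie below, and Tsc22d3 and Txnip above, the NIH samples in both forms, while Tyrobp and Igsf6 separate in the scanner files and Tf and Jam2 in the value table.

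Several genes without a call in the scanner files lay above every NIH sample in both forms. Txnip, the inhibitor of thioredoxin induced by glucose, was at 7.92, 7.99 and 8.87 in the stenotic arrays of the scanner files and between 6.52 and 7.31 in the NIH arrays, and its differences were 1.32 and 2.17 in the scanner files and the value table (limma adjusted p = 1.00 and 0.135). Scarb1, the receptor for high-density lipoprotein, differed by 0.62 and 1.86 (limma adjusted p = 1.00 and 0.0667). Plaat3, a phospholipase of fat tissue and other cells, differed by 1.09 and 1.92, and its second probe by 0.78 and 1.49. Kcnj8, a subunit of ATP-sensitive potassium channels of vessels, differed by 1.34 and 1.13. Its stenotic array 3 was at 8.70 in the scanner files, against 6.49 and 6.78 in the other 2 stenotic arrays, and its difference there was 0.67 without both arrays that stand apart. Nr1h3, the sterol sensor LXR alpha, differed by 0.49 and 0.52. Bik, which promotes apoptosis, differed by 0.51 and 0.36. The 2 forms share their NIH arrays, so these are not independent, and none of these genes was called in either form.

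Hopx and Zfp36l1 lay above every NIH array in the scanner files alone. Hopx, a homeodomain-only cofactor, was at 7.22, 7.56 and 9.49 in the stenotic arrays and between 6.04 and 6.68 in the NIH arrays (difference 1.70, limma adjusted p = 0.192; 1.07 without both arrays that stand apart), and differed by -0.20 in the value table. Zfp36l1, which destabilises mRNA with AU-rich elements, differed by 1.47 in the scanner files and by 0.91 in the value table, where groups overlapped. Anxa3, an annexin of vessels and neutrophils, lay below the NIH arrays in the scanner files (-0.77) and above the NIH columns in the value table (1.64).

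Matrix genes, whose products make up much of a thickened intima, had small differences in the scanner files. There 18 of 28 measured genes (86 listed) had the higher mean (49.0% of all features), and the median was 0.07. Unadjusted, 0 passed (3.56% of all features). Col1a2, a chain of collagen I, was at 13.18, 14.78 and 15.21 in the stenotic arrays and between 13.18 and 15.21 in the NIH arrays. The median over the value table was -0.44, beside -0.03 over all features, with 7 of the 28 higher by mean (45.1% of all features). At an unadjusted p under 0.05, 1 passed higher (2.52% of all features) and 6 lower (4.73%). Of the 28, 1 lay above every NIH column (2.97% of all features) and 7 below (4.81%), and none was called. There Col1a2 was at 11.18, 13.07 and 11.44 in the stenotic columns (difference -2.38, limma adjusted p = 0.684), and Fn1, fibronectin, at 9.08, 11.06 and 8.98 in the stenotic columns and between 10.85 and 14.90 in the NIH columns (difference -3.74, limma adjusted p = 0.303). Fmod, a proteoglycan that orders collagen fibrils, was the one above, at a difference of 2.78 (limma adjusted p = 0.101). Timp1, an inhibitor of matrix proteases, and Pcolce, which helps to process procollagen, differed by 0.76 and 0.88 in the scanner files and by -0.84 and -1.48 in the value table, and Pcolce by 0.41 in the scanner files without both arrays that stand apart.

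Further genes were far below every NIH column in the value table alone. S100a4, a calcium-binding protein of fibroblasts and leukocytes, was at 8.32, 9.26 and 9.92 in the stenotic columns and between 11.77 and 13.12 in the NIH columns (difference -3.12, limma adjusted p = 0.0667), and its second probe differed by -1.91. Il1rl1, the receptor for interleukin-33, was at 5.04, 4.90 and 4.91 in the stenotic columns and at 10.71, 8.61, 7.99, 11.19 and 9.28 in the NIH columns (difference -4.61, limma adjusted p = 0.217). Myh10, a non-muscle myosin, differed by -3.26 (limma adjusted p = 0.135). The scanner differences of these genes were -0.21, -0.76 and -1.24, with overlap, and that of Il1rl1 was -1.28 without both arrays that stand apart.

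Markers of other cells that a capture could hold had medians closer to 0 in the scanner files. Lymphocyte genes were measured for 6 of 49 listed, with a median of 0.07 and 0 that passed unadjusted. Cd3d and Cd6, both of T cells, differed by 0.13 and 0.16. Smooth muscle genes (13 of 31) had a median of -0.10, and Tagln, the only defining marker of the list that was measured, was near the floor in every array but NIH array 1, at 5.77, 5.82 and 5.96 in the stenotic arrays and between 5.80 and 6.31 in the NIH arrays. Pdgfrb, a receptor of mural cells, differed by 0.21. Fibroblast genes (10 of 27) had a median of -0.02, and their defining marker Dcn was between 5.90 and 6.24 in the stenotic arrays and between 5.74 and 6.12 in the NIH arrays. Red cell and platelet genes (8 of 27) had a median of 0.01. Hbb-b1, a globin, was at 13.75, 15.75 and 15.75 in the stenotic arrays and between 13.75 and 15.75 in the NIH arrays, where 15.75 is the highest value that the quantile scale holds. Pf4, platelet factor 4, did not overlap, at a difference of 0.48 near the floor. Neutrophil and mast cell genes (7 of 29) had a median of 0.03, with S100a8, a calcium-binding protein of neutrophils, at 7.55, 8.36 and 5.99 in the stenotic arrays and between 5.89 and 6.49 in the NIH arrays (difference 1.18, or 1.82 without both arrays that stand apart).

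These lists had value-table medians of -0.21 for lymphocytes, 0.16 for smooth muscle, 0.19 for fibroblasts, -0.19 for red cells and platelets and -0.01 for neutrophils and mast cells. The globins Hbb-b1 and Hba-a3 differed there by -2.57 and -3.18, with Hbb-b1 at 11.38, 11.82 and 13.85 in the stenotic columns and between 13.75 and 15.75 in the NIH columns. Their differences in the scanner files were 0.16 and 0.89. Adipocyte genes (4 of 20), nerve and skeletal muscle genes (5 of 31) and proliferation genes (10 of 58) had medians of -0.04, 0.05 and -0.03 in the scanner files and of 0.09, -0.14 and -0.09 in the value table. Plk1, a mitotic kinase, averaged 6.07 ± 0.33 in the stenotic arrays and 6.67 ± 0.57 in the NIH arrays (SD, n = 3 and 5). The part of other cell types in the results was not tested.

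Lysosomal and lipid-handling genes (17 of 48) had a median of 0.21 in the scanner files, with 13 of 17 higher by mean (49.0% of all features). In the value table their median was -0.18, with 3 of 17 higher (45.1% of all features). Fabp5, a fatty acid binding protein, differed by 1.10 in the scanner files and by -1.18 in the value table, and Ctsd, a lysosomal protease, by 0.93 and -0.61. Genes of stress and the immediate-early response (22 of 36) had a median of -0.20 in the scanner files, with 6 of 22 higher by mean (49.0% of all features). In the value table their median was 0.10, with 14 of 22 higher (45.1% of all features). Klf6, a zinc-finger factor induced by injury, was at 10.61, 11.68 and 10.05 in the stenotic arrays and between 11.08 and 13.28 in the NIH arrays of the scanner files (difference -1.41, limma adjusted p = 1.00). Atf4, the main factor of the integrated stress response, differed by -1.26. Without both arrays that stand apart, the scanner differences were 0.34 for Fabp5, 0.33 for Ctsd and -0.77 for Klf6. None of these 4 genes was called in either form.

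**Figure D5:**
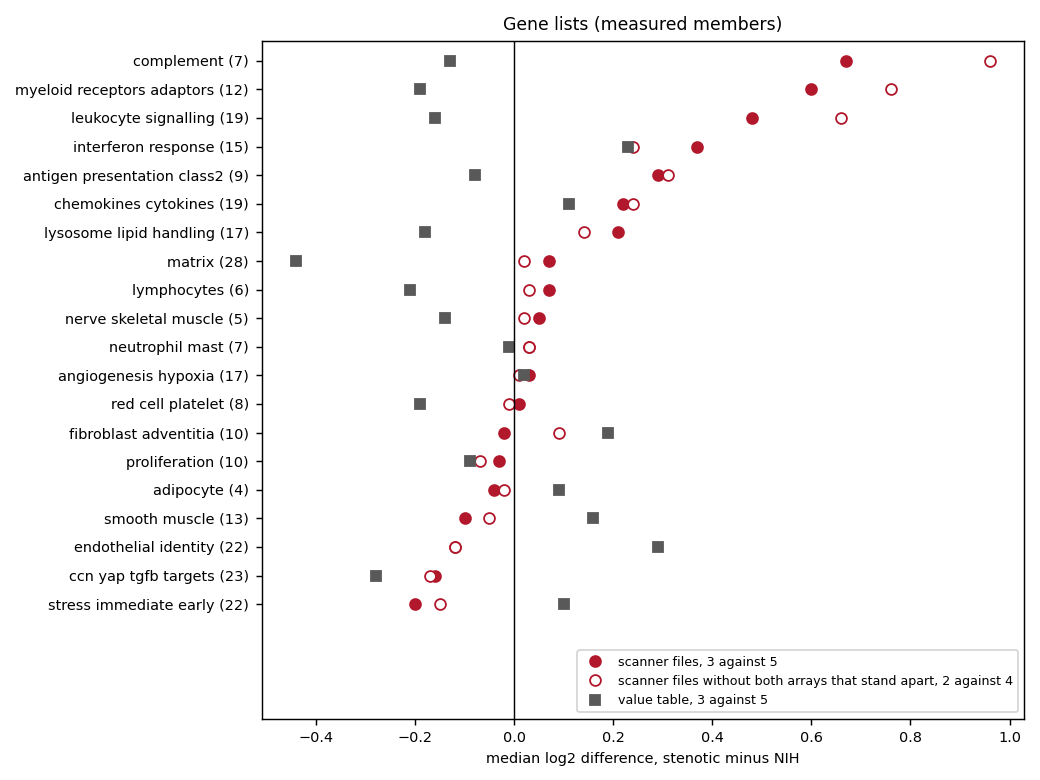
Median log2 difference, stenotic minus NIH, over the measured members of 20 gene lists (number in brackets), in the scanner files (filled circles), without both arrays that stand apart (open circles) and in the value table (squares). Complement, myeloid receptors and leukocyte signalling have the highest medians in the scanner files (0.67, 0.60 and 0.48), and all 3 are below 0 in the value table (-0.13, -0.19 and -0.16). Lists can share members, as complement and myeloid receptors share C5ar1.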

How the data were processed

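Luminal endothelium was measured on 17 single-colour arrays, and 3 stenotic and 5 NIH arrays were compared. The deposited scanner intensity values are not normalized, per the file headers. The deposited value table holds log2 values that the submitters had quantile normalized, as its columns show. Scanner intensities were background-corrected here with normexp (offset 50), put on the log2 scale and quantile normalized in limma 3.58.1 (R 4.3.3), and each feature was represented by its brightest probe. All 17 arrays entered 1 limma fit with 4 group means, and the value table was fitted likewise. Features were called at a Benjamini-Hochberg adjusted p under 0.05. P-values rest on the spread within the 4 groups over all 17 arrays, moderated across features, and not on the stenotic and NIH arrays alone. The number of arrays limits their precision. The scripts were tested on simulated data. Python 3.11.15 with pandas 2.3.3 did the rest.

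Members and lists were chosen with earlier results of these data known. Named genes were every called feature with a symbol, unnamed ones where 5 or fewer, 4 markers, the largest differences without overlap in either form or in both, and up to 4 genes per list by p. Further defining markers, list members and housekeeping genes were named after their values were seen, among them Fcgr2b, Cd68, Csf1r, Cd14, Tlr2, Lgals3, Il1b, Fn1, Cct3 and Rps27a. Alternatives were the form, background, scaling, groups fitted, dim features, a variance trend, array weights, a replicate block, probe choice and left-out arrays. Results that need items withheld for evaluation are not reported here.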

Additional observations from a re-analysis of the deposited data

Results flagged for a closer look

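In 9 of 135 groups of 5 NIH arrays examined in the scanner files, 1 array lay far from the others, by a gap over range above Dixon's critical value of 0.71, and chance flags about 1 in 20. NIH 1 was the lowest for Cct3 (5.95), Rps27a (5.93) and the mean level of the complement genes (6.55), and the highest for Ccl3 (6.91). Cct3 and Rps27a had been named for their low level in NIH 1, so their flags were fixed in advance and do not bear on chance. NIH 2 was the highest for C3ar1 (9.67) and the lowest for Bgn (13.64), a small matrix proteoglycan. NIH 5 was the lowest for BF557813 (5.87) and Adm (7.32), and the highest for the mean level of the adipocyte genes (6.85). All values are log2 intensities. The stenotic group of 3 arrays was not examined in this way.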

How the results depend on the processing

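With the value table in place of the scanner files the count of called features was 27, and the log2 difference took the other sign for Tyrobp -0.20, XM_576241 -0.59, BF557813 -0.51, XM_001053627 -0.12, BE120531 -0.12, Klra5 -0.84, C5ar1 -0.33, Cd68 -0.18, Csf1r 0.08, Cd14 -0.49, Sirpa -0.53, Lyn -0.25, Ptpn6 -0.10, Coro1a -0.34, Csk -0.93, Laptm5 -0.84, Prkcb -0.27, Fgr -0.03, Samsn1 -0.87, C1qb -0.30, C1qa -0.13, Clu 1.14, Apobec1 -0.27, Cd74 -0.12, Ifi30 -1.07, Tnfrsf1b -0.14, Cd3d -0.29, Cd6 -0.43, Ccn3 0.98, Snai1 1.16, Apln -0.25, Hopx -0.20, Timp1 -0.84, Col1a2 -2.38, Pcolce -1.48, Dcn -0.09, Tagln 0.03, Pdgfrb -0.83, Hbb-b1 -2.57, Pf4 -0.05, Fabp5 -1.18, Ctsd -0.61 and Anxa3 1.64. List medians there were myeloid receptors -0.19, leukocyte signalling -0.16, lymphocytes -0.21, class II -0.08, matrix -0.44, endothelium 0.29, smooth muscle 0.16, fibroblasts 0.19, complement -0.13 and lysosome -0.18. With the scanner files in place of the value table the count was 6, and the sign turned for Tf -0.06, Rph3al -0.01, Gchfr -0.19, Nrxn2 -0.12, Thbd -0.67 and Hba-a3 0.89. Without both arrays that stand apart, an alternative chosen after seeing the data, the scanner count was 1, the sign turned for Cd14 -0.03, Prkcd 0.11, Col1a2 -0.31 and Hbb-b1 -0.12, and the median was leukocyte signalling 0.66. Background subtraction with no offset gave 3 calls. Median scaling gave 2, with Csf1r 0.17, Sirpa -0.09, Cd3d -0.08 and Col1a2 -0.41 turned. Fitting only the 2 groups in limma gave 0 calls, with 258 features at an unadjusted p under 0.05, and 37 calls in the value table (25 higher and 12 lower; 969 unadjusted, against 685), where Tf, Ndrg2, Rph3al, Arl4a, Mettl7a and G0s2 lost theirs. Array weights, whose estimation did not converge, gave 423 calls (248 higher and 175 lower), turned Cd14 -0.06, C3ar1 -0.08, Prkcd 0.17, RT1-Da -0.07, Cd6 -0.10 and Vegfa -0.06, and gave medians of interferon -0.01, class II 0.07 and fibroblasts 0.19. Keeping only features above the median level gave medians of leukocyte signalling 0.88 and CCN, YAP and TGF-beta genes -0.38, and 15 calls in the value table. The replicate block gave 1 call in the scanner files, turned Prkcd 0.04 and Hbb-b1 -0.38 and gave a median of fibroblasts 0.15, and it gave 2 calls in the value table. In their deviations from group means, same-numbered arrays correlated at -0.607, 0.015 and -0.093 in the scanner files. In the value table they correlated at -0.124, -0.587 and -0.24. Stenotic 3 and NIH 1 of the scanner files, which stand apart, correlated at 0.758. With 3 values per form, whether replicate numbers pair the samples cannot be settled. Testing every probe gave 9 calls, 8 higher and 1 lower. With 1 array left out the scanner count ran from 1 to 10 and that of the value table from 4 to 26. Differences then ran over these ranges: Cd68 -0.06 to 0.86, Csf1r -0.03 to 0.02, Cd14 -0.08 to 0.25, C3ar1 -0.13 to 1.31, Prkcd -0.19 to 0.26, Cd3d -0.00 to 0.23, Vegfa -0.06 to 0.18, Col1a2 -0.30 to 0.72, Fn1 -1.0 to 0.31, Pdgfrb -0.13 to 0.41 and Hbb-b1 -0.17 to 0.83. List medians ran over myeloid receptors 0.44 to 0.87, leukocyte signalling 0.45 to 0.75, interferon 0.16 to 0.47 and complement 0.16 to 1.21. The cause of these changes was not tested. Signal over background limited 43.8% of features, whose means lay near the floor in both groups.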
